A study of Arabidopsis thaliana with 9 samples.

Results

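The miRNA pool of wild-type (WT) leaves of Arabidopsis thaliana was described from the 3 WT libraries of a series of 9. The plants were 3 weeks old, and the labels give no further detail of the WT line, such as its accession of origin, and no treatment. The series as a whole concerns the chromatin remodeller CHR2 and its partner SE in miRNA production, and its 6 mutant libraries were not used here. RNA of 19 to 24 nt had been size-selected and given adapters by T4 RNA ligase before sequencing, and the deposited tables give the raw count of each annotated mature miRNA. All entries with counts in WT were taken, and entries of a family with identical counts in the 3 libraries were kept once. This left 358 of 427 entries, in 179 of 214 family numbers. The libraries held 1380253, 1280294 and 1588242 counts in miRNA entries, and these totals are not the depth of sequencing, since other small RNAs are not in the tables. The labels do not say whether the libraries came from separate plants, so the spread between them may be technical. Every pair of libraries differed by more than counting error, with a chi-square divided by its degrees of freedom between 21.7 and 43.2, so none was a copy of another.

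A plant miRNA is cut by DICER-LIKE 1 from a hairpin transcript as a duplex of the 5p and the 3p arm. One strand, the guide, is loaded into ARGONAUTE1 and directs cleavage or translational repression of transcripts with a nearly complementary site, while the other, the passenger, is usually degraded. ARGONAUTE1 favours small RNAs that start with U, and in leaves old, widely conserved families set organ polarity, growth, phase change and auxin response. Each entry is a short RNA of nearly the same length, so counts were not divided by length. Ligation of adapters favours some end sequences over others, and this preference cannot be told apart from abundance when different miRNAs of a library are compared.

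The mature sequences that carry most of the pool, and the near-copies that decide how it is counted, are given first. They are RefSeq's, read from TAIR10.1, 5′ to 3′, with bases 2 to 8 (the seed) in capitals.
miR158a-3p: uCCCAAAUguagacaaagca
miR166a-3p: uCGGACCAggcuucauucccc
miR165a-3p: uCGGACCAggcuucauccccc
miR159a: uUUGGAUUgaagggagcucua
miR159b-3p: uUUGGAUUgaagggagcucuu
miR319a: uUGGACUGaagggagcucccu
miR396a-5p: uUCCACAGcuuucuugaacug
miR396b-5p: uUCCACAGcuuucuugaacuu
miR156a-5p: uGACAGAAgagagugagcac
miR157a-5p: uUGACAGAagauagagagcac
miR161-1: uGAAAGUGacuacaucggggu
miR161-2: uCAAUGCAuugaaagugacua
Counted from the 5′ end, miR165a-3p differs from miR166a-3p by U17C, miR159b-3p from miR159a by A21U and miR396b-5p from miR396a-5p by G21U, so that each of these pairs shares its seed. The sequence of miR166a-3p is also that of 6 other entries of the family, and that of miR156a-5p is shared by 6 entries in all. Among the 373 entries with counts, 119 shared their mature sequence with another entry.

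Abundant entries of the same sequence mostly had nearly the same count. The 7 entries of the miR166 3p sequence had means of 85992 to 88657 counts, a 1.03-fold range. Of 25 shared sequences whose entries all had a mean of 100 or more counts, 21 had a highest entry less than 1.1 times the lowest. The widest range among the 25 was 2.54-fold, between miR5642a and miR5642b. Some sequences with an entry below 100 counts differed more, up to 10.4-fold between miR169b-5p and miR169c. How reads with several matches were counted is not stated in the sources, and if each was counted at every copy, a sum over a family holds it several times. miR156d-5p stood apart, with 17853, 16986 and 18178 counts against 13277 to 13304, 12524 to 12557 and 13409 to 13427 in the other 5 entries of its sequence. miR161-1 and miR161-2 have different sequences, but lie 12 bases over each other on the plus strand of chromosome 1 (17825731 to 17825751 and 17825722 to 17825742) and had identical counts. Family shares are of kept counts unless given as per sequence, which is the share after entries of a sequence were averaged to a single value within a family. The second counting was still an approximation, since a read of miR170-5p has the sequence of miR171a-5p and stays in both families.

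The largest family depended on the counting. miR166, a repressor of the HD-ZIP III genes that pattern the upper leaf side, held 45.2% ± 0.513 of kept counts (SD, n = 3, as for all values of this kind below) and 13.3% ± 0.296 per sequence. miR158, a young family whose targets include pentatricopeptide repeat transcripts, held 14.6% ± 0.723 of kept counts and 30.1% ± 1.15 per sequence. Nearly all of miR158 was miR158a-3p (chromosome 3, 3366349 to 3366368, minus strand, intergenic), with 195765, 164540 and 219944 counts. Its relative miR158b, which differs by U1C, had 2037, 1850 and 2232 counts. The libraries put the same family on top in each counting, and the ranges of miR158 and miR166 did not overlap in either. miR159, which represses GAMYB-like transcription factors, came next in both, at 5.55% ± 0.204 and 11.4% ± 0.549. Its counts were mostly those of miR159b-3p, with 39783, 40392 and 48015, and of miR159a, with 29460, 28726 and 35158, while miR159c had 315, 269 and 366.

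The pool was concentrated in few families. A pair of families made up over 50% of kept counts, 11 made up 90% and 31 made up 99%, and per sequence these numbers were 3, 13 and 39. The 15 largest families held 95.7% of kept counts. At the other end, 124 of the 179 families with counts were each below 0.01%. All 29 families listed as conserved had counts and held 81.2% ± 0.657 together (61.4% ± 0.969 per sequence), and the 12 families listed as younger held 17.96% ± 0.620 (37.0% ± 0.895), mostly through miR158. The other 173 family numbers, of which 138 had counts, held 0.881% ± 0.0781, the largest of them miR8175 at 0.112% ± 0.0145. The median share of a family was 0.389% in the conserved list, 0.165% in the younger list and 0.00133% among the others with counts. The lists were drawn up with earlier results of these data known, so the order of these medians may partly reflect that choice.

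**Figure D1:**
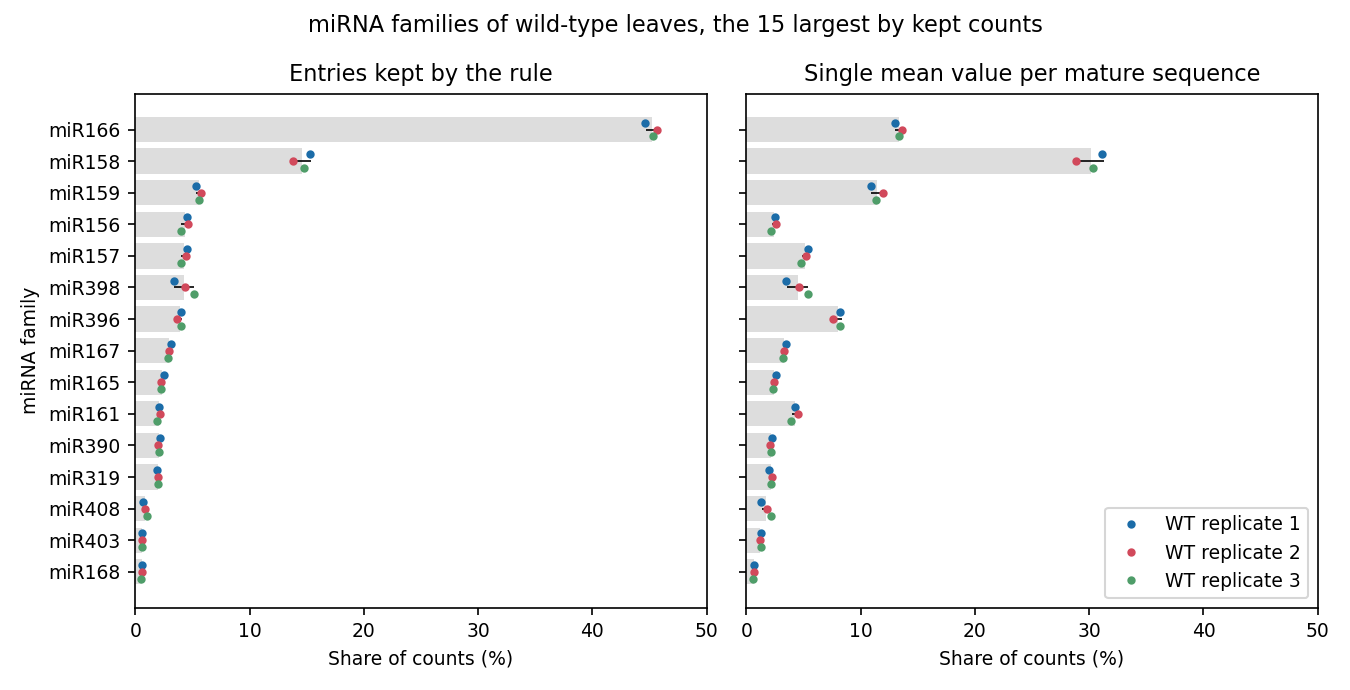
Share of counts (horizontal axis, percent) of the 15 families largest by kept counts, for all kept entries (left) and with a single mean value per mature sequence (right). Bars are means with SD over 3 WT libraries and points are the libraries. miR166 falls from 45.2% to 13.3% and miR158 rises from 14.6% to 30.1% between the countings.

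Below the top families, the ranges of several neighbours in rank overlapped. By kept counts miR156, miR157, miR398 and miR396 followed miR159 at 4.39% ± 0.357, 4.31% ± 0.301, 4.29% ± 0.881 and 3.88% ± 0.212, and the ranges of neighbours among these 4 overlapped, although miR156 was above miR157 in all 3 libraries. miR396 ranked above miR157 per sequence, at 7.996% ± 0.350 against 5.16% ± 0.316, with no overlap. miR167, miR165, miR161, miR390 and miR319 came next, at 2.98% ± 0.122, 2.35% ± 0.159, 2.07% ± 0.129, 2.06% ± 0.102 and 1.96% ± 0.0868. Of these, miR161 and miR390, and miR390 and miR319, overlapped. miR408, at 0.849% ± 0.192, was the first family below 1% and its libraries did not overlap those of miR319 by kept counts. Per sequence their ranges overlapped, with miR319 above miR408 in all 3 libraries. With 3 libraries a paired exact permutation test of neighbours cannot go below p = 0.25 (two-sided), so no p is given for the order.

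Families of leaf patterning and growth were among the most abundant. miR165 and miR166 share their targets and the seed CGGACCA, and the RNAs with this seed held 15.7% ± 0.238 per sequence. miR396, which limits GRF growth regulators, came mostly from miR396b-5p (chromosome 5, 13611808 to 13611828, plus strand) with 45276, 37622 and 51558 counts, while miR396a-5p had 5579, 4532 and 6464. The pair that differs in its last base alone was thus far apart in counts in every library. miR319, which represses TCP factors, came from miR319a and miR319b, of the same sequence, at means of 12202 and 12728, with miR319c at 1404. miR164, against CUC and other NAC factors, was far lower at 0.0633% ± 0.00670 (0.0745% per sequence).

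In the phase change pathway, miR156 and miR157 hold SPL factors down in juvenile plants, and miR172 represses AP2-like factors at the later phase. At 3 weeks miR156 and miR157 each exceeded miR172 (0.389% ± 0.0527) in every library under both countings. In the auxin group, miR167, which targets ARF6 and ARF8, was at 2.98% (3.33% per sequence), miR393, against TIR1 and AFB receptors, at 0.132% ± 0.00586 (0.271%), and miR160, against ARF10, ARF16 and ARF17, at 0.0444% ± 0.00408 (0.0806%). miR390, the trigger of TAS3 siRNAs that restrain other ARF genes, stood at 2.06% (2.14% per sequence) and miR173, the trigger of TAS1 and TAS2 siRNAs, at 0.0622% ± 0.00862 (0.128%). The shares of miR167, miR393, miR160, miR390 and miR173 sum both arms, and the listed guide of each is 5p. Per sequence, 3p made up 93.3% ± 0.526 of miR160 and 72.6% ± 3.60 of miR393. Most of either share is thus not of the guide. The 3p arm made up 53.1% ± 4.16 of miR173, 9.998% ± 0.858 of miR167 and 1.36% ± 0.107 of miR390. Mean 5p counts of miR167, miR393 and miR160 per sequence were 19424, 483 and 35.3, in the same order as their shares. Families that target the miRNA machinery were of intermediate level, with miR403 (AGO2) at 0.602% ± 0.0224, miR168 (AGO1) at 0.560% ± 0.0177 and miR162 (DCL1) at 0.454% ± 0.0278. Per sequence they were further apart, at 1.24% ± 0.0325, 0.638% ± 0.0131 and 0.467% ± 0.0259.

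Nutrient families ranged from abundant to barely detected. Among those of low copper, miR398, against copper/zinc superoxide dismutases, was at 4.29% (4.51% per sequence) and miR408, against plantacyanin and laccases, at 0.849% (1.75%). These shares sum both arms, and the listed guide of each is 3p. Per sequence, 3p made up 37.8% ± 4.39 of miR398, so most of its share is not of the guide, and 90.9% ± 1.60 of miR408. miR397, against laccases, was at 0.0293% ± 0.00992 (0.0603%), and miR857, against a laccase, at 0.00527% ± 0.000870 (0.0109%). miR395, raised by low sulphate, was at 0.0246% ± 0.00386 (0.0225%). For phosphate, miR399 was at 0.0292% ± 0.00277 (0.0323%) and miR827 at 0.00376% ± 0.000979 (0.00773%). In miR2111, 3 of 4 entries had 0 counts in the 3 libraries, and miR2111a-3p had 1, 0 and 0.

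For 93 hairpins both arms are annotated by name. Both arms of a hairpin are measured in the same library, so arms were compared within libraries, and scaling between libraries does not enter. Of these, 83 had at least 10 counts over both arms and the 3 libraries, and were tested by edgeR's quasi-likelihood test with the library as a block. At an adjusted p below 0.05, the 3p arm was higher in 32 (38.6%) and the 5p arm in 38 (45.8%), which left 13 not called. Most hairpins thus had unequal arms (84.3%), and when the test was for more than a 2-fold difference, 31 remained called in each direction. Arms were not only unequal but often very much so. The higher arm made up 90% or more of the counts in 18 hairpins for 3p and in 18 for 5p, and among the 58 hairpins with a mean of 100 or more counts the median ratio of arms was 10.2-fold.

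In several abundant hairpins nearly all counts lay on 1 arm. miR158a had 1163, 714 and 731 counts on its 5p arm, so that 3p made up 99.5% ± 0.131 (log2 ratio 7.82, SE 0.24, adjusted p 3.1e-79 by edgeR, as below). miR396b was 99.3% 5p, with 330, 293 and 370 counts on its 3p arm (log2 of 3p over 5p -7.08, SE 0.04). miR159b was 99.8% 3p, miR390a 99.5% 5p and miR394b, which targets the F-box protein LCR, 99.4% 5p. In miR172d the 3p arm had 189, 155 and 173 counts and the 5p arm 0 in each library, so that the 3p count was at least 172-fold higher (against 3 counts over the 3 libraries). This is a bound for the 3p sequence, which miR172c shares, and not for the hairpin. The guide sequence is also shared in the miR166, miR156, miR390a and miR394b hairpins, so their ratios may include guide reads of other loci. With a single value per sequence and arms placed by position, miR166 as a family was still 99.7% ± 0.0280 3p, and miR156 was 8.70% ± 0.883 3p. The passengers of miR156 hairpins with 1 shared guide differed widely, from 708, 610 and 738 counts for miR156d-3p to 11, 5 and 7 for miR156f-3p.

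**Figure D2:**
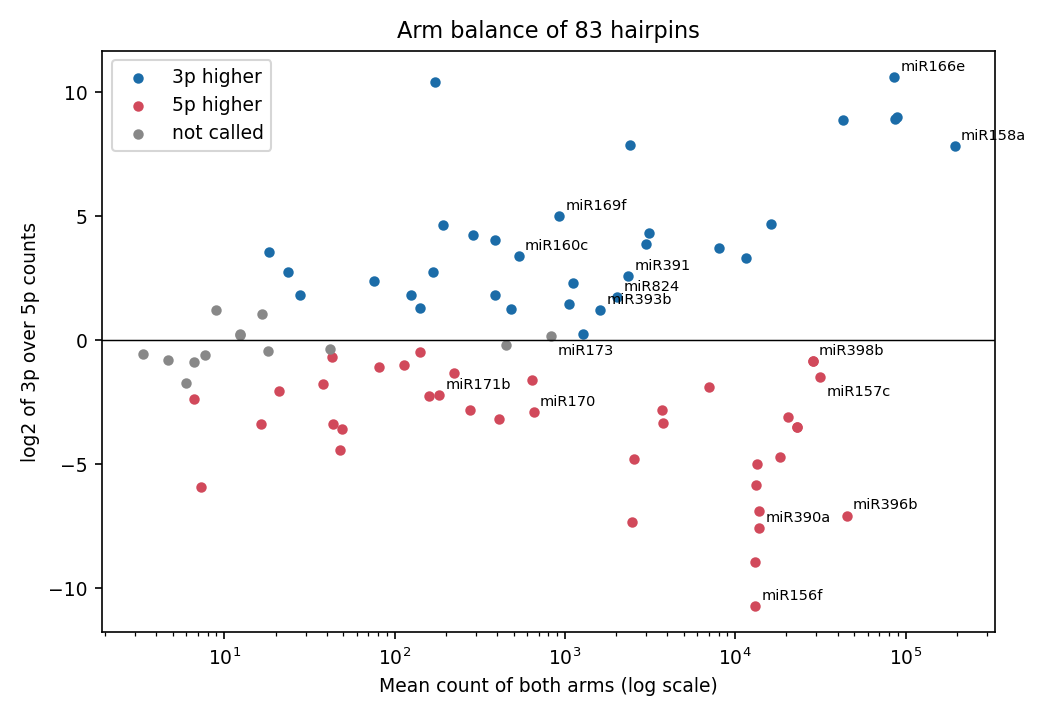
Log2 ratio of 3p over 5p counts (vertical axis, fitted by edgeR) against the mean count of both arms (horizontal axis, log scale) for 83 hairpins, with 32 called 3p higher, 38 called 5p higher and 13 not called. Most hairpins lie far from 0, and miR173 lies near it.

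Other abundant hairpins kept a sizeable second arm. In miR157c the 3p passenger had 9009, 6551 and 9619 counts, 26.6% ± 3.31 of the counts of both arms. The share of miR157a-3p, from a hairpin of the same guide, was 8.27% ± 1.25. This guide sequence is found in 3 entries, so its count may hold reads of other loci. The sequence of miR157c-3p is in 1 entry, so its share of the hairpin may be understated. In miR396a the 3p arm made up 21.5% ± 2.90, against 0.736% ± 0.0321 in miR396b. Arms were nearest to equal in miR173 (53.1% ± 4.16 3p, log2 ratio 0.18, SE 0.14, adjusted p 0.16) and miR472 (46.6% ± 2.81 3p, log2 ratio -0.20, SE 0.09, adjusted p 0.16), which regulates NLR immune receptors. Neither was called, but without WT replicate 1 miR173 was called 3p higher (adjusted p 0.0011) and miR472 5p higher (adjusted p 0.013). TMM scaling of the arms also called miR173 (0.00061). That scaling sets 3p and 5p counts against each other, and it moved the log2 ratio of miR173 from 0.18 to 0.46. miR171a was 54.1% ± 1.71 3p (1.18-fold, adjusted p 0.042), a call lost in 7 alternatives, among them without WT replicate 2 (adjusted p 0.05) or 3 (0.29), without the library block (0.13), by DESeq2 with size factors of 1 (0.11) and by limma (0.087). The sequence of miR171a-5p is also that of miR170-5p, so its 5p count may hold reads of miR170. miR844 was 42.2% ± 5.38 3p (1.39-fold higher 5p, adjusted p 0.0071). This call was lost without WT replicate 1 (adjusted p 0.19) and by DESeq2 with size factors of 1 (0.066). It was also lost under TMM scaling of the arms (0.42), where the log2 ratio moved from -0.47 to -0.19.

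The higher arm was usually the textbook guide, with exceptions in 8 families. For 49 tested hairpins with a mean of 100 or more counts the guide arm was listed from general knowledge, and in 35 that arm was called higher, in 12 the other arm and in 2 neither. The 12 were miR398b, miR398c, miR391, miR824, miR393b, miR169a, miR169f, miR169g, miR160c, miR170, miR171b and miR171c. Their arm differences were smaller, with a median of 5.30-fold against 25.8-fold for the 35. Shared guides also enter the 35, whose median is the ratio of miR156d, with a guide sequence found in 6 entries. Reads of other loci may thus add to the gap between the 35 and the 12. For 8 of these 12 the guide sequence is shared with another entry, so its count may hold reads of other loci, and in miR398b and miR398c both arms are shared. For miR170 the higher arm is the shared one, so its excess may hold reads of miR171a.

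Arms whose counts go against the usual naming are shown with their listed guides and, for comparison, miR393a-3p, again with the seed in capitals.
miR398b-5p: aGGGUUGAuaugagaacacac
miR398b-3p: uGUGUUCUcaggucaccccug
miR393b-3p: aUCAUGCGaucucuuuggauu
miR393a-3p: aUCAUGCUaucucuuuggauu
miR393a-5p: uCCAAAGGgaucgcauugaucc
miR391-3p: aCGGUAUCucuccuacguagc
miR391-5p: uUCGCAGGagagauagcgcca
miR824-3p: cCUUCUCAucgauggucuaga
miR824-5p: uAGACCAUuugugagaaggga
miR160c-3p: cGUACAAGgagucaagcauga
miR160c-5p: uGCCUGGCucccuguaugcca
miR169f-3p: gCAAGUUGaccuuggcucugc
miR169f-5p: uGAGCCAAggaugacuugccg
miR171b-5p: aGAUAUUAgugcgguucaauc
miR171b-3p: uUGAGCCGugccaauaucacg
The listed guide starts with U in 11 of the 12 hairpins, while the arm with more counts starts with U in 2, with A in 6, with C in 2 and with G in 2.

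The exceptions included regulators of well-studied pathways. miR398b-5p had 12742, 17457 and 24836 counts and miR398b-3p 8727, 8593 and 13047, so that 5p was higher in every library (1.78-fold, log2 of 3p over 5p -0.83, SE 0.15, adjusted p 2.7e-09), although not by more than 2-fold when that was tested (adjusted p 0.77). In miR398a, whose 3p arm differs by U21G (miR398a-3p to miR398b-3p), the 3p arm was higher instead, at 872, 660 and 1238 counts against 103, 160 and 325 (4.96-fold, adjusted p 1.7e-05). miR393b-3p had 1034, 1004 and 1344 counts and miR393b-5p 528, 389 and 532, which is the same count as miR393a-5p, of the same sequence (2.34-fold, adjusted p 7e-21). In miR393a, whose 3p arm differs by U8G (miR393a-3p to miR393b-3p), within the seed, 3p was the lower arm with 113, 155 and 215 counts against the same 5p counts (3.04-fold, adjusted p 8.5e-14). The 5p count is common to both hairpins, so what each contributes to it was not measured, and only the 3p counts are specific to a hairpin.

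miR169, which targets NF-YA factors, had its 3p arm higher in miR169f (97.0% ± 0.573, 32.1-fold, adjusted p 9.3e-71), miR169g (94.2% ± 0.631) and miR169a (73.4% ± 1.09), and its 5p arm in miR169b (28.6% ± 3.79 3p, log2 of 3p over 5p -1.30). miR169b-5p shares its sequence with miR169c, of far fewer counts (means of 159 and 15.3), and with their mean the log2 ratio was -0.44 (adjusted p 0.009). miR160c-3p had 488, 398 and 584 counts against a mean of 46.7 for its 5p guide, which limits ARF factors (10.5-fold, adjusted p 4.5e-50). miR391 was 85.6% ± 1.51 and miR824, the regulator of AGL16 in stomatal development, 76.9% ± 2.83 3p. For the HAM regulators, miR171b and miR171c were 82.3% ± 2.78 and 87.5% ± 1.51 5p. Each of these differences had the same direction in all 3 libraries.

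**Figure D3:**
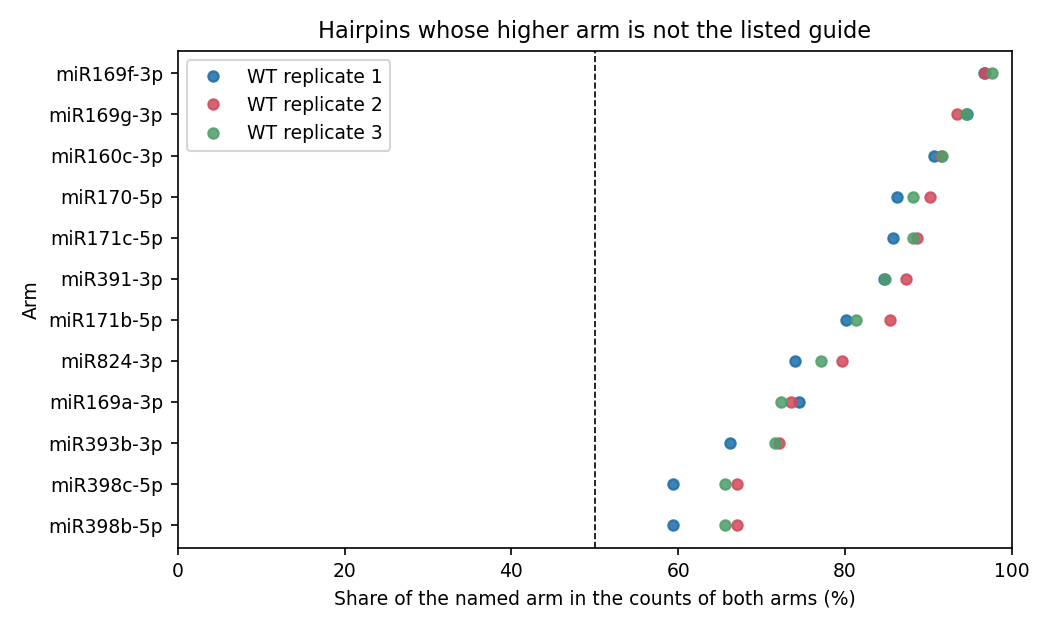
Share of the named arm in the counts of both arms (horizontal axis, percent) for the 12 hairpins of 100 or more mean counts in which the arm not listed as guide was called higher. Points are the 3 WT libraries and the dashed line is 50%. All points lie above 50%, from the miR398 hairpins (mean 64.0%) to miR169f-3p (97.0%).

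By arm, 3p held 70.9% ± 0.481 of the kept counts whose entry names an arm, while hairpins called higher were 32 for 3p and 38 for 5p. This order of the calls was not kept, since among hairpins of 100 or more mean counts there were 28 of each, and 17 against 14 among hairpins of unshared sequences. The share rests on a few families, since without miR166 it was 57.6% ± 1.03. Entries that name no arm held 37.9% ± 0.498 of kept counts. With these placed by position in the hairpin and a single value per sequence, 3p held 70.7% ± 0.415.

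The counts were concentrated in RNAs that start with U more than the entries were. U started 159 of 297 sequences (53.5%) but held 87.8% ± 0.746 of counts per sequence, and A held 8.11% ± 1.04, led by miR398b-5p, miR390a-5p and miR408-3p. U started 61.5% of the 39 sequences with a mean of 1000 or more counts and 49.0% of the 102 below 10. Between arms, the higher arm of the 70 called hairpins started with U in 45 and the lower arm in 28, and G started 4 higher and 21 lower arms. In 32 hairpins the higher arm alone started with U, and in 15 the lower arm alone. These are counts of hairpins, and several hairpins share the sequence of their higher arm. The U-starting 5p sequence of miR156a, miR156b, miR156c, miR156d and miR156f was counted in each, as was the 3p sequence of miR166a, miR166b and miR166e. First bases of arms were not tallied per sequence, so how far the excess of U rests on repeated sequences was not tested. Annotated RNAs of 21 nt held 65.1% ± 1.13 per sequence and those of 20 nt 33.3% ± 1.15, mostly miR158a-3p, which is 20 nt long. RNAs of 24 nt held 0.828% ± 0.160, nearly all of it miR163, whose targets are methyltransferases of the SABATH family, at 4778, 5490 and 4677 counts. These are lengths of the annotation, and the lengths of reads are not in the tables. Entries in intergenic hairpins held 95.0% ± 0.505 of kept counts and those in UTR exons 3.08% ± 0.613, against 92.4% ± 1.21 and 6.36% ± 1.28 per sequence. Those in UTR exons were chiefly miR398b, inside AT5G14550, and miR408, inside AT2G47020. Genes on either strand were taken for this placing, so it does not give the transcript that a miRNA comes from. The intergenic miR398c has the same mature sequences as miR398b, so reads of the pair cannot be told apart.

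Families differed in how far their share moved between libraries. Among the 61 families with a mean of 100 or more counts, the coefficient of variation of the share over the 3 libraries had a median of 9.46%. It was lowest in miR166 (1.13%), miR858 (2.54%), miR824 (2.69%), miR775 (2.83%) and miR168 (3.16%). For miR858, which targets MYB factors of flavonoid synthesis, counting error alone would give 2.40%. It was highest in miR839 (35.7%), miR169 (34.2%), miR397 (33.9%), miR8180 (26.0%) and miR408 (22.6%). For miR169 and miR408 counting error alone would give 1.498% and 0.933%. In 57 of the 61 families the spread was above counting error, which is set too low for families whose reads are counted at several entries.

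The families of low copper, grouped here after their values were seen, were highest in the same library. miR397 was at 0.0209%, 0.0268% and 0.0402% in WT replicates 1, 2 and 3, miR408 at 0.652%, 0.860% and 1.04%, miR398 at 3.37%, 4.38% and 5.12%, and miR857 at 0.00453%, 0.00505% and 0.00623%. All 4 were thus highest in WT replicate 3 and lowest in WT replicate 1. Both arms of miR408 were highest there, with 7823, 9499 and 13918 counts of 3p and 671, 879 and 1705 of 5p, whereas miR398a-3p was lowest in WT replicate 2. Over the 61 families, 11 had their highest share in WT replicate 3, 32 in replicate 1 and 18 in replicate 2, and miR857 is not among the 61, with a mean of 71.3 counts. miR169 was at 0.467% in WT replicate 1, against 0.277% and 0.261%. Whether the growth or the handling of these plants differed is not given in the labels and was not tested.

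**Figure D4:**
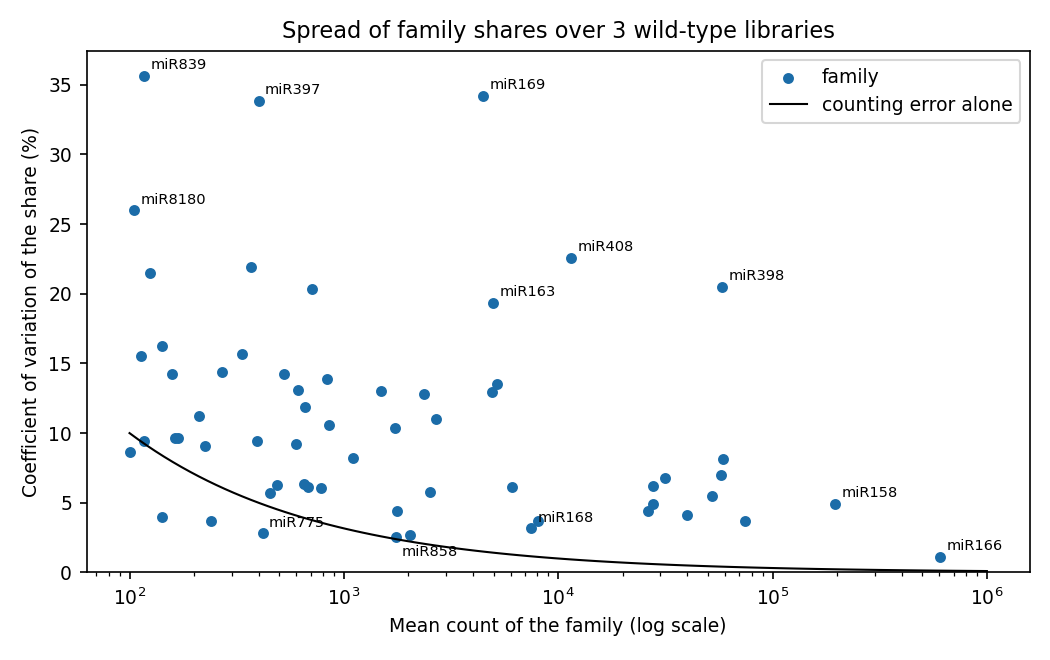
Coefficient of variation of a family's share over the 3 WT libraries (vertical axis, percent) against its mean count (horizontal axis, log scale), for 61 families of 100 or more mean counts. The line is the spread that counting error alone would give. Of the 61 families 57 lie above the line, and miR169, miR408 and miR398 stand highest among those with over 1000 counts.

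In all, 54 of 427 entries had 0 counts in the 3 libraries, and 35 of 214 families had no entry with counts. A count of 0 allows up to 3 counts over the 3 libraries, or 0.000071% of their total. These entries were thus not detected at this depth of miRNA counts, and could be present below that limit. Another 15 entries had counts in 1 library and 30 in 2 libraries, which leaves 328 in all 3. Zero entries were rarest in the early family numbers, with 11 of 175 below 500 (6.29%), against 17 of 101 from 500 to below 1000, 13 of 36 from there to below 5000 and 13 of 115 at 5000 and above. The last class held 0.454% ± 0.0554 of kept counts and a median entry mean of 7 counts, against 271 for numbers below 500. In conserved families 6 of 148 entries were at 0, namely miR156i, miR172d-5p, miR399e, miR2111a-5p, miR2111b-3p and miR2111b-5p. miR828, a trigger of TAS4 siRNAs, had 0, 0 and 1 counts. Families without any count included miR413, miR415, miR417, miR418, miR419, miR420 and miR426, all numbered below 500. Of the entries at 0, 38 (70.4%) are annotated with U as the first base, against 54.7% of the entries kept.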

How the data were processed

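Mature miRNAs were counted in 3 libraries of WT leaves. The authors' deposited files hold counts, whole and not normalized, 1 file a library. Bowtie 1.1.2 and TAIR10 are named in the submitters' processing notes. No source used here names the counter, the miRNA annotation or the treatment of reads with several matches. All 427 names were matched to RefSeq mature miRNAs of TAIR10.1 (14 with a dot for a hyphen), which gave sequence, position and, for all but 1, the arm by place in the hairpin. Where an arm was named, it never differed from the position.

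Identical counts were merged within a family (358 entries kept). Merging over all families would leave 338 and join unrelated entries of low counts. Shares are percent of the kept counts of a library. Arms were tested with edgeR 4.0.16 (R 4.3.3), quasi-likelihood and robust, with library as a block, since both arms come from the same library, library totals as offsets, and Benjamini-Hochberg adjustment over 83 hairpins. Fold changes and log2 ratios are fitted by this test, and their SE is that of the 3 log2 ratios with 0.5 counts added. DESeq2 1.42.0, limma 3.58.1 on log2 ratios, other scalings, filters, countings of copies and each library left out were alternatives. The arm test was tested on simulated data. Totals of 1280294 to 1588242 counts set the precision, and limits from 0 counts cover counting error only. Named families were the 15 largest and the 5 most and 5 least variable, with those of the role lists, and named hairpins were the most abundant, the most unequal, the nearest to equal and those whose higher arm is not the listed guide. Roles and guide arms come from general knowledge. The members, the lists and this rule were chosen with earlier results of these data known.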

Additional observations from a re-analysis of the deposited data

How the results depend on the processing

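Under 11 alternatives of scaling, tool, filter and counting of copies, 29 to 34 hairpins were called 3p higher and 34 to 38 were called 5p higher. Without the replicate block (here the library) the counts were 31 and 38. Hairpins of which both sequences occur in no other entry were fewer (44 tested), and 17 and 14 were called. Leaving out a library gave 31 to 33 and 34 to 37. No called hairpin turned its direction in the alternatives run. Shares depended on the counting of copies. The largest family was miR166 at 42.7% with all entries kept and at 47.5% when joined with miR165. It was miR158 at 30.1% with a single mean value per sequence, also with near-identical families joined (chosen after seeing the data), and at 29.8% with the largest value per sequence. Leaving out a library gave 45.0% to 45.5% for miR166 with the kept entries held fixed. When identical counts were looked for again in the remaining 2 libraries, more copies merged and the share was 42.1% without WT replicate 1, 45.0% without 2 and 41.4% without 3. The choice between these versions was made after both were seen. The share of 3p arms was 67.0% with all entries kept, 74.6% and 74.1% with a mean or largest value per sequence, 76.5% with arms by position, 57.6% without miR166, 70.7% to 71.2% without a library, and 70.4% without WT replicate 1 when identical counts were looked for again. The number of families holding 90% of counts was 8 to 13. Entries without counts numbered 99 where 0 in any library sufficed, 112 where under 10 counts in all sufficed, and 56 to 63 without a library. Totals of miRNA counts limit what is said of rare entries, and the total reads of the libraries are not in the tables.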
